A study of Homo sapiens with 22 samples.

Results

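The globin genes encode the protein chains of haemoglobin, the oxygen carrier of red blood cells. The set described here held the 10 rows of the deposited gene table named HBA1, HBA2, HBZ, HBM, HBQ1, HBB, HBD, HBE1, HBG1 and HBG2, out of 60240 rows. Its rows were picked by gene name, with earlier results of these data known. All 10 passed the filter on low counts. Polyadenylated RNA was sequenced from haematopoietic progenitor cells differentiated in culture from the human embryonic stem cell line H1. In the DOX arm, doxycycline switched on an ectopic copy of the growth regulator MYC, and cells were taken on days 12, 14, 16, 18 and 20 of culture. The UT arm received no doxycycline and was taken on the same days and also on day 10. Each of the 11 groups had 2 libraries, 22 in all, with totals of 24730517 to 53508590 estimated counts. Titles give a single line name for every library, the same in both arms. No group had doxycycline without ectopic MYC, so effects of the drug and of MYC cannot be told apart. Nothing in the labels states that replicates came from separate cultures; the p-values may therefore reflect technical spread alone.

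A haemoglobin molecule pairs alpha-like with beta-like chains. The alpha-like genes lie in a cluster on chromosome 16: HBZ encodes the embryonic zeta chain, HBA1 and HBA2 the alpha chain of fetal and adult life, HBM the mu chain and HBQ1 the theta chain, whose part in haemoglobin is unclear. The beta-like genes lie on chromosome 11: HBE1 encodes the embryonic epsilon chain, HBG1 and HBG2 the gamma chains of fetal haemoglobin, HBD the minor adult delta chain and HBB the adult beta chain. During development, expression passes along each cluster from the embryonic to the adult genes, a change known as globin switching, and blood cells made from pluripotent stem cells are known for mainly embryonic and fetal globins.

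In these cells, embryonic and fetal globin RNA was the main beta-like RNA in all 11 groups, and HBB, the adult gene, had 128 counts over the 22 libraries. Most globin genes fell with time in both arms. Between the arms, no globin gene was called on day 12, 4 were lower in DOX on day 14, and most were higher in DOX from day 16. HBD alone of the 10 was called lower in DOX on day 20.

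Averaged over days 12 to 20, MYC differed by 0.83 on the log2 scale (SE 0.11). It had 242 and 232 CPM in DOX on day 12, against 126 and 121 in UT. By day 20 it had 49.6 and 28.9 CPM in DOX, against 34.6 and 28.7 in UT, and the libraries overlapped. The row cannot tell endogenous from ectopic MYC.

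Promoter sequence was matched for 2 of the 10 genes, HBD and HBM, in RefSeq (GRCh38.p14). They are shown because no promoter of another member was matched. Each line gives the 250 bases before the transcription start, 5′ to 3′ on the gene's strand, with matches to the searched motifs in capitals (HBD, chr11:5234484-5234733, minus strand; HBM, chr16:165728-165977, plus strand).
HBD promoter: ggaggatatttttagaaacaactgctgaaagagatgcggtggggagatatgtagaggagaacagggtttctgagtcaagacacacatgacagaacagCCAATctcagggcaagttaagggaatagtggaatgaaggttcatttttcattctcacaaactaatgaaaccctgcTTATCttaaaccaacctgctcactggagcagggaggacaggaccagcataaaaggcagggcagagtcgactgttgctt
HBM promoter: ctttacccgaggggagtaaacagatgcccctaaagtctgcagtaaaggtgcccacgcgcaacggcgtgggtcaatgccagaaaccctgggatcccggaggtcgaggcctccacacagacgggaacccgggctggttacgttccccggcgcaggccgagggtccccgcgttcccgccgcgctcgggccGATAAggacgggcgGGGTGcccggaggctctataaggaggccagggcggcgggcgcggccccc
The motifs searched on both strands were GATAA (core of the GATA1 site), CACCC (the box bound by KLF1), CCAAT and the E-box CACGTG, the sequence best known for binding by MYC with its partner MAX. The HBD window held CCAAT from base -153 to -149 and GATAA on the opposite strand from -78 to -74, counted back from the start site. The HBM window held GATAA from -63 to -59 and CACCC on the opposite strand from -49 to -45. CACGTG was in neither window. Among 35116 RefSeq promoter windows of the same length, 20.4% held GATAA, 54.7% CACCC, 32.0% CCAAT and 6.34% CACGTG, and the matches are descriptions of letters, not of binding.

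Levels were set against each other on day 10 of UT, the earliest day sampled, as CPM (counts per 1000000 counts) per kilobase of transcript. CPM values here are scaled by TMM, a method that centres each library on the bulk of its genes. HBG2 had the highest level, 1497 CPM per kb. HBE1 at 863 and HBA1 at 825 CPM per kb followed, and their libraries overlapped. HBA2 had 162 CPM per kb, HBD 95.8 and HBZ 89.7, the last pair again overlapping. HBG1 had 15.4, HBQ1 5.68, HBM 1.47 and HBB 0.561 CPM per kb. The transcript lengths came from the GENCODE 29 annotation, which may differ from the one behind the counts.

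Several rows share reads with neighbours. The coding sequences of HBA1 and HBA2 are identical over 426 bases, and those of HBG1 and HBG2 differ at 2 of 441, so the division of reads within each pair is uncertain. HBG1 took 0 to 28.7% (median 1.35%) of the reads of HBG1 and HBG2, and HBA2 took 10.5 to 19.8% (median 13.6%) of those of HBA1 and HBA2. A read-through row over both gamma genes, AC104389.6 (ENSG00000284931.1), held a further 39.8 to 52.9% of all reads given to the 3 gamma rows. On chromosome 16 the annotated HBM row (153892 to 166768, plus strand) runs over the end of HBZ (152687 to 154503). On the minus strand of chromosome 11, the HBG2 row (5253190 to 5505605) encloses most of the HBE1 row (5268345 to 5505652), because both include transcripts that start far upstream.

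Without ectopic MYC, globin RNA fell steeply. Between day 20 and day 10 of UT, edgeR's quasi-likelihood test called 9 of the 10 globin genes lower at a Benjamini-Hochberg adjusted p under 0.05 and none higher, where 34.2% of the 20115 genes tested were called lower and 28.1% higher. Their median log2 fold change was -2.93, against -0.24 over all genes tested. Among genes with counts on both days, HBE1, HBZ and HBG2 had the largest fitted falls. HBE1 had 14.7 and 15.7 CPM on day 20, against 768 and 807 on day 10, which is -5.69 on the log2 scale (SE 0.29, adjusted p = 1.4e-11). HBZ, at 1.78 and 0.941 CPM against 67.1 and 68.3, changed by -5.66 (SE 0.41, adjusted p = 1.2e-09). HBG2, at 9.69 and 29.3 CPM against 901 and 938, changed by -5.55 (SE 0.34, adjusted p = 1.3e-10).
The alpha genes fell by less on the log2 scale: HBA1 changed by -2.88 (SE 0.19, adjusted p = 3.2e-10) and HBA2 by -2.91 (SE 0.29, adjusted p = 6.3e-08). HBQ1 changed by -2.14 (SE 0.41) and HBD by -2.27 (SE 0.20). The fall of HBD was over by day 16: its UT libraries held 11.8 and 9.94 CPM on day 16, 10.1 and 12.5 on day 18 and 10.2 and 13.3 on day 20. HBB had 0 counts on day 20 against 43 on day 10, at least 1.33-fold lower with a floor of 3 counts per library. HBM had 2 counts against 87, a ratio of 0.125 with a 95% interval of 0.0149 to 0.466 that covers counting error only. HBG1 changed by -2.26 (SE 0.75, adjusted p = 0.014), but lost the call without UT day 10 replicate 1 (adjusted p = 0.055) or UT day 20 replicate 2 (adjusted p = 0.13), with DESeq2 (adjusted p = 0.061) or with only the groups compared (adjusted p = 0.11). UT day 20 replicate 2 had no HBG1 count.

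With ectopic MYC the genes also fell, between day 20 and day 12. The test called 8 of 10 lower, where 29.7% of all genes were called lower and 26.7% higher, with a median of -2.18 against -0.08 over all genes. HBZ changed by -3.88 (SE 0.34), HBD by -3.44 (SE 0.21), HBG2 by -2.97 (SE 0.30) and HBE1 by -2.78 (SE 0.25), each with an adjusted p under 0.05 (1.1e-07 or smaller). HBA1 changed by -1.23 (SE 0.18, adjusted p = 1.0e-05) and HBA2 by -1.32 (SE 0.26, adjusted p = 0.00024). HBG1 passed (-1.57, SE 0.65, adjusted p = 0.047) but lost the call without DOX day 12 replicate 2 (adjusted p = 0.22), DOX day 20 replicate 1 (adjusted p = 0.17) or DOX day 20 replicate 2 (adjusted p = 0.11), with DESeq2 (adjusted p = 0.17) or with at least 1 CPM in 4 libraries (adjusted p = 0.060). HBQ1 did not pass the test (0.22, SE 0.30, adjusted p = 0.56); its DOX libraries held 3.54 and 4.18 CPM on day 12, 3.87 and 3.22 on day 14, 6.07 and 6.88 on day 16, 7.18 and 8.13 on day 18 and 4.07 and 4.94 on day 20. Over all DOX days, the test of any difference between days called 7 of 10 globin genes, where 59.8% of all genes were called, and over all UT days it called 10 of 10, where 72.8% were called. The DOX and UT courses start on different days, so their changes are not set against each other by size.

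**Figure D1:**
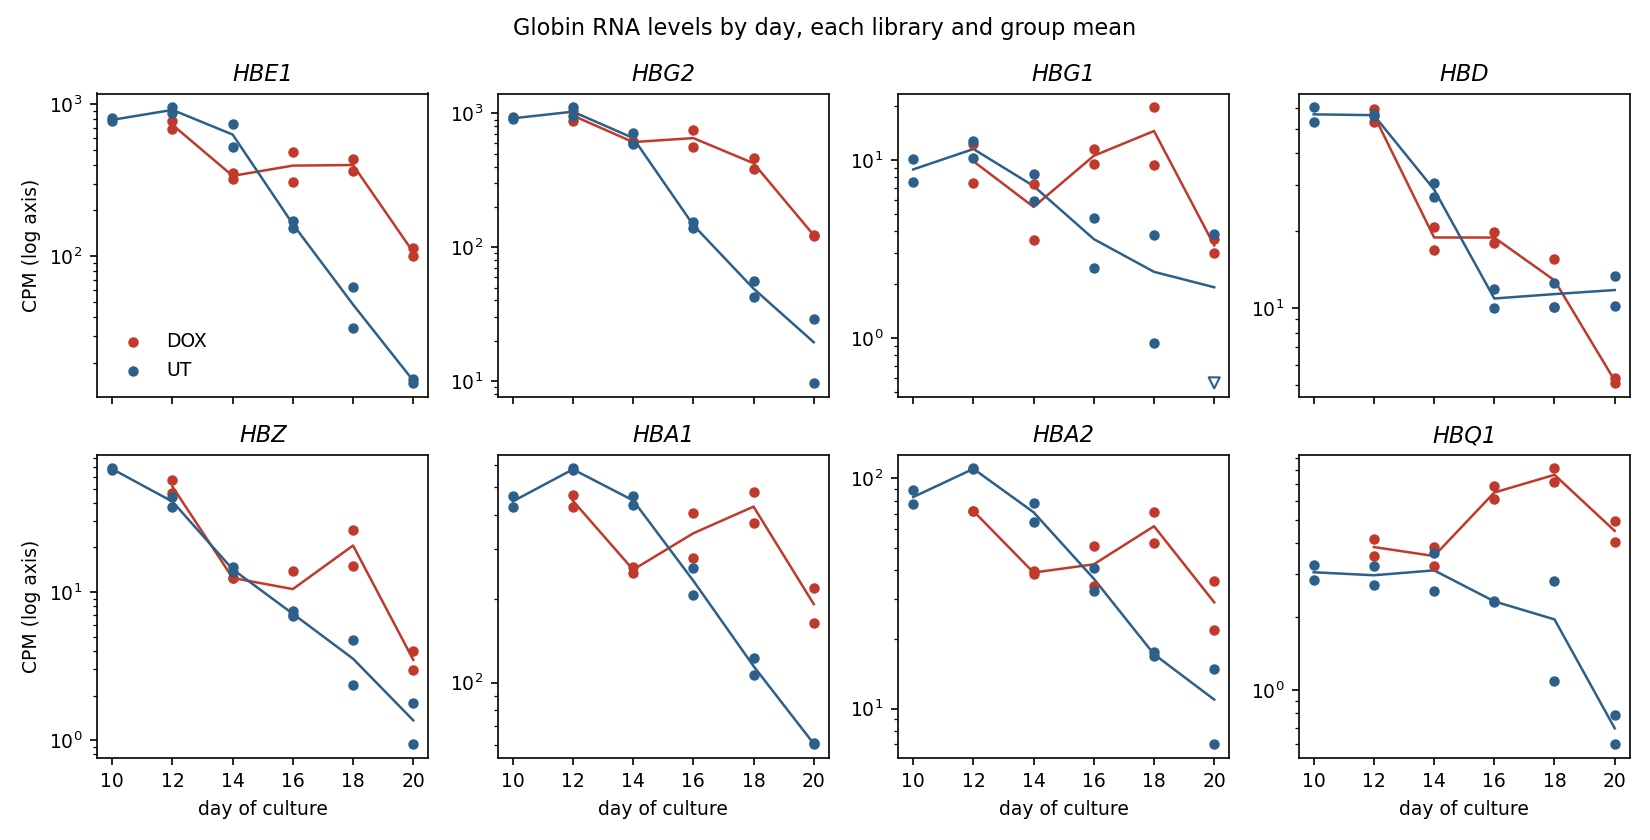
TMM-scaled CPM (log axis) against day of culture for 8 globin genes, with DOX in red and UT in blue. Points are single libraries, lines join group means and the open triangle marks a UT library with no HBG1 count. From day 14 to day 18 the mean of HBE1 lies between 338 and 398 CPM in DOX, while the UT line falls to 48.2 CPM.

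Averaged over days 12 to 20, the difference between DOX and UT was called for 8 of the 10 globin genes, all higher in DOX, where 29.8% of all genes were called higher and 23% lower. The median log2 fold change of the 10 was 1.06, against 0.08 over all genes. Among the beta-like genes, HBG2 differed by 1.54 (SE 0.13, adjusted p = 1.2e-08, 2.91-fold) and HBE1 by 1.18 (SE 0.11, adjusted p = 3.9e-08, 2.26-fold). With the gamma pair summed the value was 1.52 (SE 0.11), and with the read-through row added 1.48 (SE 0.10). Among the alpha-like genes, HBQ1 differed by 1.34 (SE 0.15, adjusted p = 5.0e-07) and HBZ by 0.94 (SE 0.15, adjusted p = 4.8e-05). HBA1 differed by 0.58 (SE 0.08, adjusted p = 5.1e-06) and HBA2 by 0.39 (SE 0.12, adjusted p = 0.0079).
HBG1 (0.87, SE 0.30, adjusted p = 0.020) was no longer called without DOX day 14 replicate 2 (adjusted p = 0.052) or DOX day 18 replicate 2 (adjusted p = 0.053), nor without day 16 (adjusted p = 0.12) or day 18 (adjusted p = 0.25), nor with DESeq2 (adjusted p = 0.11). HBA2 lost the call without day 18 (0.0252, adjusted p = 0.93) or day 20 (0.15, adjusted p = 0.17). HBM was also called (adjusted p = 0.0019), but its average includes a UT day with 0 counts, and it was not called without DOX day 20 replicate 2 or without day 18 (adjusted p = 0.060). HBD was not called (-0.17, SE 0.08, adjusted p = 0.10) and neither was HBB, but the call of HBD turned on the processing. It was called lower in DOX without day 16 (-0.41, adjusted p = 0.0029), without day 18 (-0.25, adjusted p = 0.014), without DOX day 18 replicate 1 (-0.20, adjusted p = 0.032), with DESeq2 (-0.21, adjusted p = 0.031), with DESeq2's size factors (-0.21, adjusted p = 0.039) and with at least 1 CPM in 4 libraries (-0.22, adjusted p = 0.026), and called higher with library sizes alone (0.37, adjusted p = 0.0013).
The average hides a change of direction. Taken over days 12 and 14 alone, HBA1 (-0.60), HBA2 (-0.74) and HBE1 (-0.61) were called lower in DOX, and HBG2 stood at -0.10 (adjusted p = 0.77). Over these 2 days, 5039 of the 20115 genes tested were called in either direction, a share near that of the globin genes.

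On day 12 the test called no globin gene, where 0.845% of all genes were called higher and 2.26% lower. Before adjustment, 2 of the genes, HBA1 and HBA2, were under 0.05. With adjustment, limma-voom called HBA2 and DESeq2 called none of them. HBA2 had 72.2 and 71.9 CPM in DOX, against 110 and 110 in UT, and its libraries did not overlap. A fit of the day 12 libraries alone called HBA1, HBA2 and HBE1 lower in DOX, with HBA2 at -0.65. That fit called 4742 genes in all, far more than the main fit, so its globin calls are not set against the shares above.

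On day 14, 4 globin genes were called lower in DOX and none higher, where 15.3% of all genes were called higher and 11.7% lower. HBA1 had 247 and 260 CPM in DOX, against 431 and 467 in UT (-0.82, SE 0.18, adjusted p = 0.0018). HBE1 had 324 and 351 CPM in DOX, against 523 and 738 in UT (-0.90, SE 0.23, adjusted p = 0.0071). The DOX libraries of both genes lay below both UT libraries.
HBA2 (-0.87, SE 0.25, adjusted p = 0.014) and HBD (-0.62, SE 0.18, adjusted p = 0.014) were the other called genes. HBG2 was not among them: it had 598 and 624 CPM in DOX, against 590 and 720 in UT, and the groups overlapped (-0.10, SE 0.27, adjusted p = 0.83). The count fell to 2 without DOX day 14 replicate 1, DOX day 14 replicate 2 or UT day 14 replicate 2. HBE1 was lost without DOX day 14 replicate 1 (adjusted p = 0.064) or UT day 14 replicate 2 (adjusted p = 0.12), while HBA1 stayed called in each of these fits. HBA2 was lost without DOX day 14 replicate 1 (adjusted p = 0.070), DOX day 14 replicate 2 (adjusted p = 0.10) or UT day 14 replicate 2 (adjusted p = 0.11). HBD was lost without DOX day 14 replicate 2 (adjusted p = 0.19) or UT day 14 replicate 1 (adjusted p = 0.11). The UT day 14 libraries differed from each other more than any other pair, with 17.5% and 9.96% of counts from the mitochondrial genome.

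On day 16, 6 globin genes were called higher in DOX and none lower, where 21.2% of all genes were called higher and 18.7% lower. HBG2 had 560 and 749 CPM in DOX, against 154 and 138 in UT (2.16, SE 0.29, adjusted p = 1.1e-05). HBE1 had 306 and 482 CPM in DOX, against 171 and 154 in UT (1.28, SE 0.23, adjusted p = 0.00028). Both DOX libraries of each gene exceeded both UT libraries.
HBQ1 (1.49, SE 0.31, adjusted p = 0.00097) and HBD (0.79, SE 0.19, adjusted p = 0.0024) were also higher. HBA1 was called (0.57, SE 0.18, adjusted p = 0.016), but not without DOX day 16 replicate 2 (adjusted p = 0.29) or UT day 16 replicate 2 (adjusted p = 0.15). HBB had 16 counts in DOX against 0 in UT, at least 1.31-fold higher, and passed the test. HBM had 39 counts in DOX against 3 in UT, a ratio of 6.47 (95% interval 2.06 to 32.8, counting error only), and did not pass the test over replicates (adjusted p = 0.098).

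Day 18 gave the widest separation. All genes but HBD and HBB were called higher in DOX, 8 of 10, where 19.8% of all genes were called higher and 16% lower, and the median of the 10 was 2.57 against 0.08 over all genes. HBG2 had 462 and 387 CPM in DOX, against 42.1 and 56.0 in UT (3.11, SE 0.30, adjusted p = 4.2e-07, 8.63-fold). HBE1 had 362 and 434 CPM in DOX, against 33.7 and 62.7 in UT (3.04, SE 0.25, adjusted p = 7.4e-08, 8.22-fold). HBZ had 15.1 and 26.1 CPM in DOX, against 4.74 and 2.35 in UT (2.60, SE 0.34, adjusted p = 1.4e-05).
The alpha genes followed, HBA1 with 374 and 480 CPM in DOX, against 123 and 106 in UT (1.90, SE 0.18, adjusted p = 3.7e-07), and HBA2 at 1.85 (SE 0.27). HBQ1 differed by 1.92 (SE 0.33, adjusted p = 0.00018). HBG1 was called (2.55, SE 0.69, adjusted p = 0.0073) but not without DOX day 18 replicate 2 (adjusted p = 0.081) or UT day 18 replicate 1 (adjusted p = 0.069). HBM had 71 counts in DOX against 0 in UT, at least 5.32-fold higher. HBD had 15.5 and 10.1 CPM in DOX, against 10.1 and 12.5 in UT, and did not pass the test (0.16, SE 0.19, adjusted p = 0.54).

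On day 20 the pattern parted, with 6 genes called higher in DOX and 1 lower, where 15.9% of all genes were called higher and 11.9% lower. HBE1 had 99.8 and 113 CPM in DOX, against 14.7 and 15.7 in UT (2.80, SE 0.26, adjusted p = 5.8e-07). HBG2 had 122 and 124 CPM in DOX, against 9.69 and 29.3 in UT (2.64, SE 0.31, adjusted p = 6.5e-06). HBA1 had 164 and 219 CPM in DOX, against 60.3 and 60.6 in UT (1.66, SE 0.18, adjusted p = 3.7e-06). In each of these the DOX libraries lay above the UT libraries.
HBQ1 had 4.07 and 4.94 CPM in DOX, against 0.791 and 0.599 in UT (2.70, SE 0.41, adjusted p = 0.00010), and HBA2 differed by 1.39 (SE 0.29, adjusted p = 0.0015). HBZ passed (1.39, SE 0.48, adjusted p = 0.037) but lost the call without DOX day 20 replicate 1 (adjusted p = 0.19) or UT day 20 replicate 2 (adjusted p = 0.27), with DESeq2's size factors (adjusted p = 0.052), with limma-voom (adjusted p = 0.27) and with only the groups compared (adjusted p = 0.19). HBD went the other way, with 5.31 and 5.09 CPM in DOX, against 10.2 and 13.3 in UT (-1.18, SE 0.21, adjusted p = 0.00051). Scaled by library size alone, HBD on day 20 was at -0.25 (adjusted p = 0.37), where the median of all genes stood at 0.95.

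**Figure D2:**
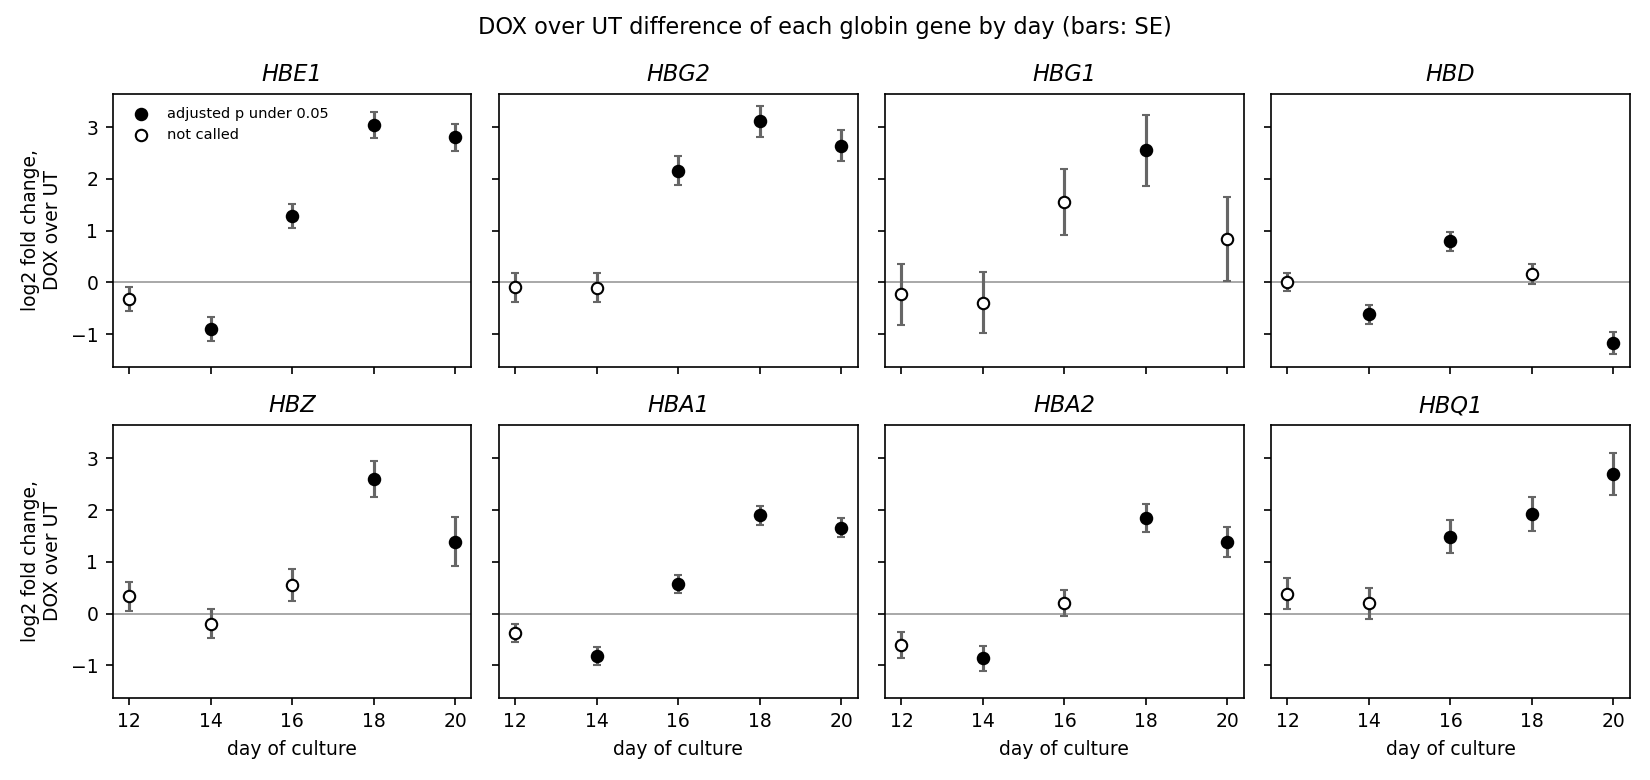
Log2 fold change of DOX over UT against day of culture for 8 globin genes, with standard errors. Filled points have an adjusted p under 0.05. HBE1, HBA1 and HBA2 lie below 0 on day 14 and above 0 on days 18 and 20. HBG2 lies near 0 on days 12 and 14, and HBD is below 0 on days 14 and 20.

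The change of the difference from day 12 to day 20 was itself tested and called for 6 globin genes, 5 upward and 1 downward, where 5.62% of all genes were called upward and 3.34% downward. HBE1 changed by 3.13 (SE 0.35, adjusted p = 1.3e-05), HBG2 by 2.74 (SE 0.41, adjusted p = 0.00028), HBQ1 by 2.31 (SE 0.51, adjusted p = 0.0078), HBA1 by 2.03 (SE 0.25, adjusted p = 4.3e-05) and HBA2 by 1.99 (SE 0.38, adjusted p = 0.0024). HBD changed by -1.18 (SE 0.28, adjusted p = 0.012), without the call when DOX day 12 replicate 2 (adjusted p = 0.056) or UT day 20 replicate 2 (adjusted p = 0.069) was left out, with library sizes alone (-0.18, adjusted p = 0.65) or with limma-voom (adjusted p = 0.053).

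The make-up of beta-like RNA was taken from counts per kilobase, as a description. The gamma genes HBG1 and HBG2 together held 71.5% ± 0.129 of it in DOX on day 14, against 59.5% ± 1.92 in UT (SD, n = 2 each), and embryonic HBE1 held 26.3% ± 0.543 in DOX, against 37.7% ± 2.64 in UT. On day 16 the gamma share was 70.3% ± 2.07 in DOX, against 55.5% ± 0.428 in UT. The DOX libraries had the higher gamma share and the lower epsilon share on both days, with no overlap. On day 18 the epsilon shares overlapped, at 33.3% and 41.0% in DOX, against 29.7% and 36.6% in UT. The gamma shares that day were 64.5% and 57.5% in DOX, against 56.6% and 52.2% in UT.
On day 20 the HBE1 share was 35.1% ± 1.62 in DOX, against 24.3% ± 6.47 in UT, and the gamma share 62.2% ± 1.44 in DOX, against 47.5% ± 10.1 in UT. The rest was delta: HBD held 2.65% ± 0.185 in DOX, against 28.2% ± 3.64 in UT, and on day 18 it held 1.83% ± 0.505 in DOX, against 12.5% ± 1.75 in UT. Since the level of HBD in UT was about the same on days 16, 18 and 20, its share there moved with the fall of HBE1 and HBG2. HBB was at most 0.0291% in any library. Shares depend on how rows are counted. With the read-through row counted as gamma, the HBE1 share on day 20 was 23.3% in DOX, against 16.9% in UT.

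Among alpha-like RNAs, HBA1 and HBA2 together held 91.0% ± 0.611 in UT on day 10 and between 92.6% and 97.6% in the means of all other groups. Embryonic HBZ held 8.30% ± 0.604 on day 10 of UT. On day 12 it held 6.14% and 6.87% in the DOX libraries, against 3.71% and 4.29% in the UT libraries, and on day 14 2.93% and 2.86% in DOX, against 2.06% and 1.75% in UT, with the DOX libraries above the UT libraries on both days. On day 20 it held 1.14% ± 0.469 in DOX, against 1.34% ± 0.673 in UT, and these overlapped. The alpha-like share of all globin RNA was 32.4% ± 0.717 in DOX on day 16, against 53.7% ± 2.12 in UT, and 44.7% ± 5.15 in DOX on day 18, against 62.2% ± 8.90 in UT. On day 20 it was 55.8% ± 4.45 in DOX, against 66.0% ± 5.44 in UT. DOX was below UT on each of these days without overlap between libraries. The size of the share depends on how rows are counted. From raw counts, the alpha-like share on day 20 was 48.7% in DOX. With the read-through row counted as gamma, it was 45.6% in DOX on day 20, against 57.4% in UT.

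**Figure D3:**
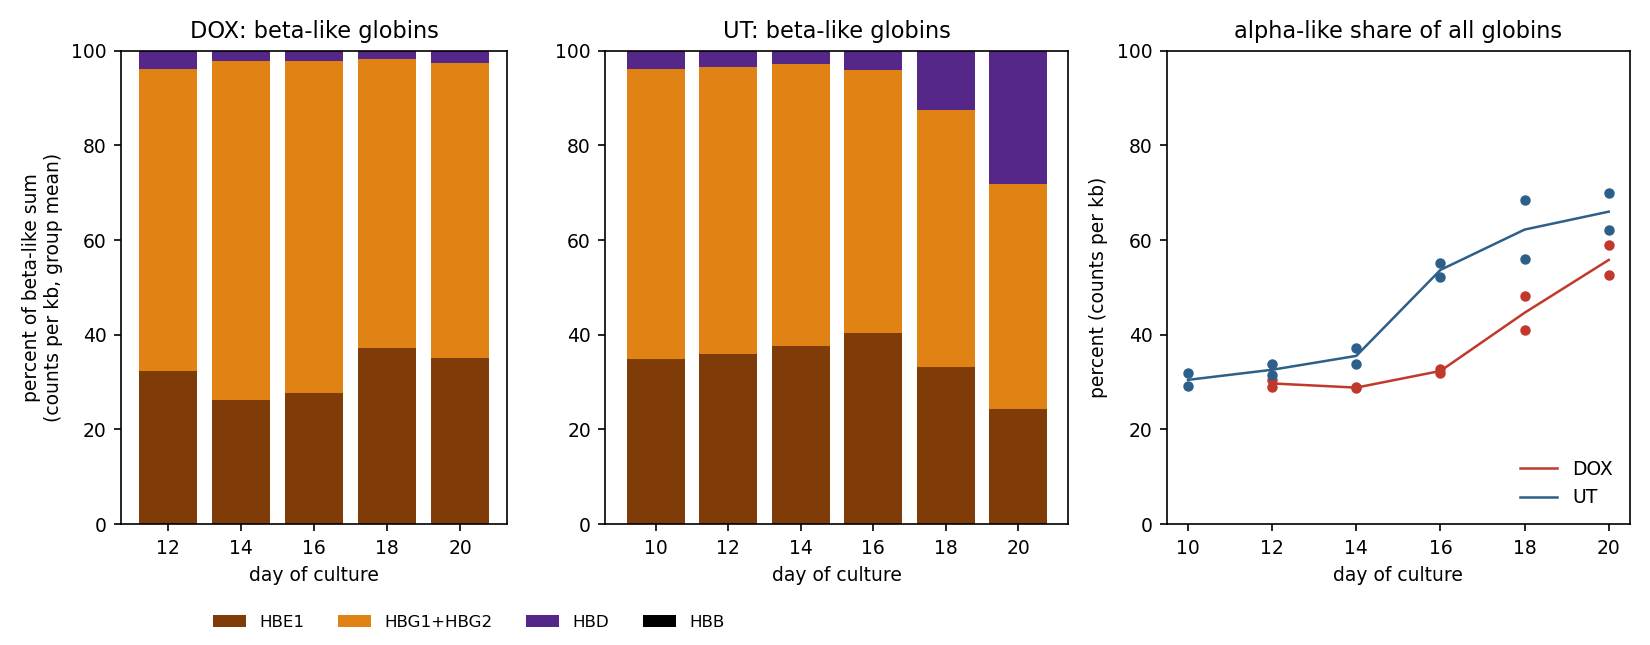
Left and middle, mean share of each beta-like globin in the beta-like sum of counts per kilobase, by day, in DOX and in UT. HBD widens to 28.2% in UT on day 20 and stays at 2.65% in DOX, and HBB is too small to be seen. Right, alpha-like percent of all globin RNA, with single libraries as points and group means as lines.

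In all, the 10 genes were a small part of the RNA. They took 0.390% of counts outside the mitochondrial genome in DOX on day 12, against 0.476% in UT, and 0.407% in UT on day 10. On day 14 the share was 0.219% in DOX, against 0.333% in UT, on day 16 0.250% in DOX, against 0.0941% in UT, and on day 18 0.221% in DOX, against 0.0334% in UT. On day 20 it was 0.0703% in DOX, against 0.0153% in UT. DOX libraries were below UT libraries on days 12 and 14 and above them on the later days. These totals leave out the gamma read-through row. With it, the day 12 libraries held 0.468% and 0.539% in DOX, against 0.582% and 0.621% in UT.
Mitochondrial genes moved over the same days, taking 20.2% of all counts in DOX on day 16, against 54.7% in UT, and 57.0% in DOX on day 20, against 72.7% in UT. With the 37 genes of the mitochondrial genome removed before scaling, HBD on day 20 was at -1.16. Scaled by library size alone, it was at -0.25, where the median of all genes stood at 0.95. The part of the mitochondrial share in the globin differences was not tested. In bulk RNA, fewer globin-expressing cells and less globin RNA per cell cannot be told apart.

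**Figure D4:**
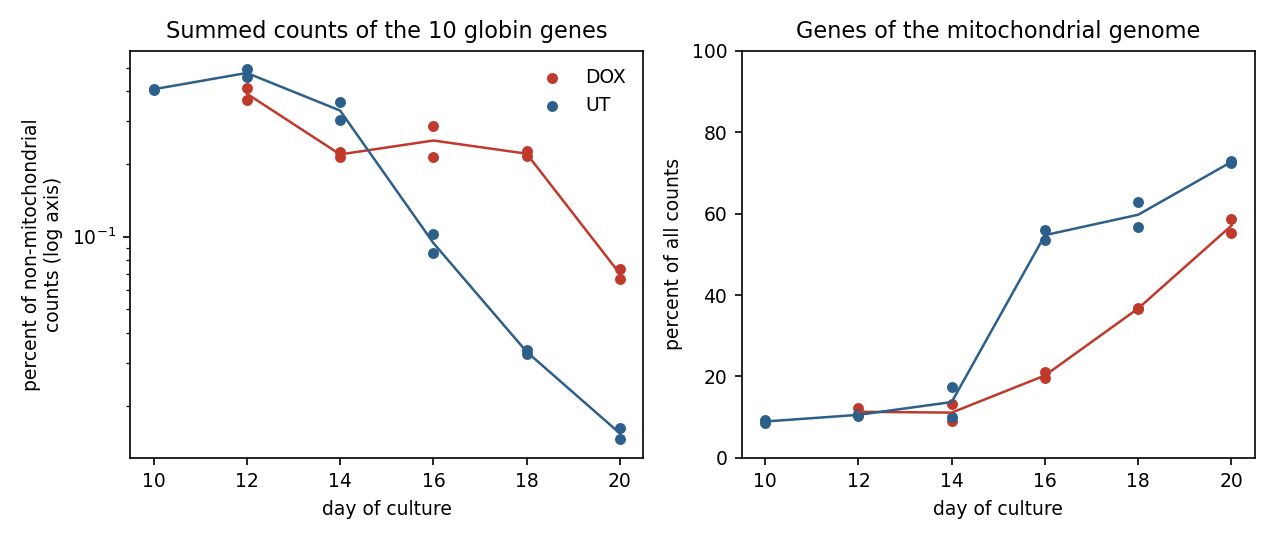
Left, summed counts of the 10 globin genes as percent of non-mitochondrial counts (log axis). Right, percent of all counts from the mitochondrial genome. Points are libraries and lines group means, with DOX in red and UT in blue. The globin lines cross between days 14 and 16, the interval over which the mitochondrial share of UT reaches 54.7%.

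The levels of other cell type markers were taken beside the globins. The summed level of 5 red cell markers (SLC4A1, ALAS2, AHSP, EPB42, HEMGN) was 104 to 121 CPM in DOX on day 14, against 44.0 to 47.9 in UT, 51.4 to 59.0 in DOX on day 18, against 8.94 to 13.4 in UT, and 24.7 to 25.8 in DOX on day 20, against 6.13 to 7.01 in UT. None of the 5 was at 0 in any group. HEMGN made up most of the day 14 sum in DOX, with a mean of 87.8 CPM in DOX, against 18.4 CPM in UT. Taken one by one, 1 of the 5 markers, HEMGN, was called higher in DOX on day 14 and none lower, with a median of -0.19. Over all genes on day 14, 15.3% were called higher and 11.7% lower. On day 16 HEMGN was called higher and ALAS2 lower (-0.50, adjusted p = 0.0499), with a median of -0.38. Over all genes on day 16, 21.2% were called higher and 18.7% lower. The share of markers called higher is near that of all genes on both days. On day 18 the call was higher for 3 and lower for none, where 19.8% of all genes were called higher and 16% lower. On day 20 it was higher for 2 and lower for 1, where 15.9% of all genes were called higher and 11.9% lower. The summed level of 6 megakaryocyte markers was 1406 to 1696 CPM in DOX on day 18, against 344 to 370 in UT, with none at 0. On day 12 that sum was lower in DOX, at 3666 to 3901 CPM, against 5449 to 5607 in UT. The summed level of 7 mast cell, basophil and eosinophil markers was 10740 to 11560 CPM in DOX on day 20, against 20420 to 24330 in UT, where TPSAB1 was at 0. PRG2 was the most abundant of the 7. Taken one by one on day 20, 1 of the 7 was called higher in DOX and 6 lower, where 15.9% of all genes were called higher and 11.9% lower. The part of these markers in the globin differences was not tested.

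Genes known to control the globin clusters were followed as a list of 27. This list and those below were drawn from textbook knowledge with earlier results of these data known, so their called shares are descriptions. Averaged over the days, 13 of the 27 were called higher and 7 lower in DOX, with a median of 0.16. Over all genes, 29.8% were called higher and 23% lower, and the median was 0.08. The share called lower is near that of all genes. KLF1, an erythroid activator of the beta-globin cluster, differed by 2.08 (SE 0.11, adjusted p = 2.9e-11), with mean levels of 21.2 CPM in DOX on day 18, against 0.899 CPM in UT. LIN28B, an RNA-binding protein that favours fetal globin, differed by 0.68 (adjusted p under 0.05 by the same test), and its relative LIN28A by 2.53 (SE 0.22), with 2 counts left in UT on day 20. GATA1, the central erythroid factor, differed by 0.40 and its partner GFI1B by 0.69 (SE 0.08).
Repressors of fetal globin divided. ZBTB7A, which silences the gamma genes, was lower by the averaged test (-1.22, SE 0.10, adjusted p = 6.2e-09), with 240 CPM in DOX on day 20, against 589 CPM in UT. In UT the level of ZBTB7A on day 20 stood above that of day 10, at 4.55 on the log2 scale. MYB, a progenitor factor whose loss raises fetal globin, was lower as well (-0.96, SE 0.08, adjusted p = 6.7e-09). BCL11A, the best known gamma-globin repressor, had 9.85 CPM in DOX on day 20, against 10.3 CPM in UT, and was not called (-0.13, adjusted p = 0.33). IGF2BP1, an RNA-binding protein that can raise fetal globin when overexpressed, was not called either (-0.03, adjusted p = 0.81). CHD4, a subunit of the NuRD repressor complex and the most abundant of the list, differed by -0.35 (SE 0.09), and NFIA, an erythroid fate factor, by 0.82 (SE 0.23).

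The haem, chaperone and iron list had 18 tested members, 13 called higher and 2 lower in DOX against 29.8% and 23% of all genes, with a median of 0.33 against 0.08 over all genes. CPOX (1.16, SE 0.06), UROD (0.96, SE 0.06) and FECH (1.11, SE 0.07), enzymes of the later part of haem synthesis, were higher, as were the mitochondrial iron importer SLC25A37 (0.96, SE 0.08) and the biliverdin reductase BLVRB (0.96, SE 0.08). ALAS2, the erythroid enzyme of the first step, differed by 0.72 (SE 0.09, adjusted p = 3.6e-06), with 12.7 CPM in DOX on day 20, against 2.78 CPM in UT. AHSP, the chaperone of free alpha chains and normally very abundant in red cell precursors, was close to absent, with 4 to 43 summed counts per group. Its averaged difference was -1.50 (SE 0.50, adjusted p = 0.016).

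Of 24 red cell membrane, surface and enzyme genes, 17 were called higher and 2 lower in DOX against 29.8% and 23% of all genes, with a median of 0.71 against 0.08 over all genes. SPTB, the erythroid beta spectrin, differed by 2.91 (SE 0.13), RHAG, the Rh-associated glycoprotein, by 2.61 (SE 0.10), and HEMGN, an erythroid nuclear protein, by 2.69 (SE 0.18). The glycophorin GYPB, which differed by 2.95 (SE 0.21), had 1 count in UT on day 18 and 2 on day 20, and CA1, a red cell carbonic anhydrase (2.68, SE 0.79), had 0 in UT on days 16 and 18. TRIM58, a ubiquitin ligase of late erythroid cells and the most abundant of the list, differed by 1.01 (SE 0.08).
On day 14 the list had 10 members called higher and 5 lower in DOX, against 15.3% and 11.7% of all genes, with a median of 0.55, while the globin median was -0.45. SPTB, at 2.52, and KLF1, at 0.79, were called higher in DOX on the day on which HBA1 and HBE1 were called lower. Among the globins of other tissues, CYGB (cytoglobin) differed by 0.77 (SE 0.29, adjusted p = 0.029), whereas MB (myoglobin) and NGB (neuroglobin) had at most 4 summed counts in a group.

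**Figure D5:**
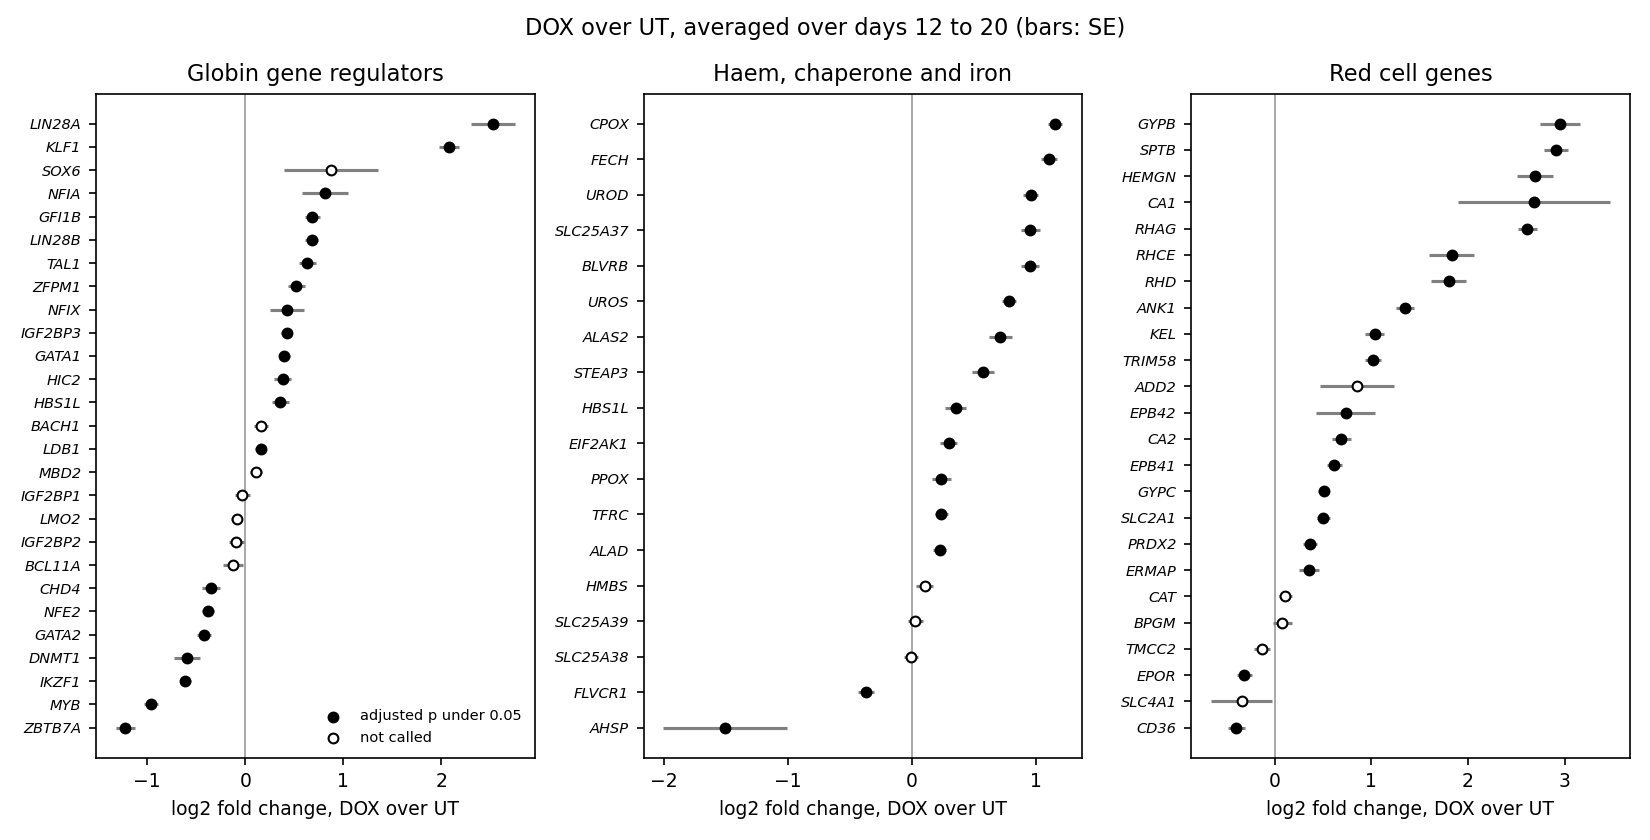
Log2 fold change of DOX over UT averaged over days 12 to 20, with standard errors, for genes of globin control, of haem synthesis with chaperone and iron supply, and of the red cell membrane, surface and enzymes. Filled points have an adjusted p under 0.05. KLF1 and LIN28A stand at the top of the first panel and ZBTB7A at its bottom, and AHSP is the lowest of the second.

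Across the 22 libraries, which share day and arm, HBE1 and HBG2 followed each other closely, with a Pearson r of 0.980 on log2 CPM. The r of HBG2 was 0.943 with HBA1, 0.880 with HBZ, 0.718 with HBD and 0.679 with HBQ1. Among 11559 genes ranked, those closest to HBG2 that are no globins were ESAM (0.990), LTBP1 (0.984), TUBB1 (0.984), CXCL3 (0.983) and FAXDC2 (0.983). Closest to HBE1 were MEIS1 (0.989), CXCL3 (0.981), FGF2 (0.981), LGALSL (0.978) and KALRN (0.977). HBZ had weaker neighbours, led by SLC22A17 (0.947) and CYREN (0.947), and those of HBB, led by ISY1-RAB43 (0.908), rest on 128 counts.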

How the data were processed

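The deposited values are expected counts (estimated counts of reads per gene and library), made by the authors with Trim Galore 0.6.5, STAR and Salmon on hg38, per the submitters' processing notes; the annotation and strand setting are not given in the sources used here. Of the values, 88.3% were whole, and all were rounded. Genes passing filterByExpr (minimum count 10; 20115 of 60240) were fitted by edgeR 4.0.16 with TMM scaling and 1 coefficient per group over 22 libraries (11 residual degrees of freedom), and p-values were Benjamini-Hochberg adjusted over all genes tested. The fit was tested on simulated data. The averaged comparison weights 5 days equally. CPM use the TMM-scaled library total. Gene positions and lengths are from GENCODE 29 (GRCh38), matched to 58020 identifiers. Where a side had 0 counts, folds are bounds with a floor of 3 counts per library; with 1 to 3 counts, ratios carry 95% exact intervals. Replicates differed beyond sampling noise (chi-square per degree of freedom 7.99 to 100.1). Named genes were all members, MYC, up to 6 called list members with the largest averaged change, the most abundant one, and 9 known controllers; likeness took the 5 highest r. Some red cell genes are not reported here and were left out of their lists. The members and lists were chosen with earlier results of these data known. Alternatives were DESeq2 1.42.0 and its size factors, library sizes alone, other filters, limma-voom (limma 3.58.1), a replicate block, mitochondrial or globin genes left out, only the groups compared, and leaving out days or libraries. Summing the gamma rows with the read-through row was added after seeing the data. Software was matplotlib 3.10.9, scipy 1.17.1, pandas 2.3.3, numpy 2.4.6, Python 3.11.15 and R 4.3.3.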

Additional observations from a re-analysis of the deposited data

Results flagged for a closer look

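For 6 globin genes, the DOX over UT difference on day 20 was not the same as on day 12, by the interaction term of edgeR's quasi-likelihood fit (2 libraries per group). The log2 difference grew by 3.13 for HBE1, 2.74 for HBG2, 2.31 for HBQ1, 2.03 for HBA1 and 1.99 for HBA2, and changed by -1.18 for HBD. On day 20, both DOX libraries lay above both UT libraries for the first 5 genes and below them for HBD. This separation uses the same day 20 values as the tested change, and its share over all genes was not counted. The change of HBD lost the call without DOX day 12 replicate 2 (adjusted p = 0.056) or UT day 20 replicate 2 (adjusted p = 0.069), with library sizes alone (-0.18, adjusted p = 0.65) or with limma-voom (adjusted p = 0.053). The share of mitochondrial counts differed between the arms on day 20 (57.0% in DOX, 72.7% in UT) and hardly on day 12 (11.3% in DOX, 10.6% in UT); its part in these changes was not tested.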

How the results depend on the processing

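Among values of single genes, 1264 kept their direction and side of the threshold under an alternative, 34 gained and 42 lost the call, and 30 changed sign. Of composition shares taken from raw counts or with the read-through row, 17 moved beyond the replicate SD and 10 did not. Sign changes outside left-out libraries were as follows. HBD on day 12, whose difference was 0.00, stood at -0.0383 with DESeq2 or its size factors, -0.0659 with library sizes alone, -0.0203 with at least 1 CPM in 4 libraries, -0.0018 with limma-voom, -0.000511 with globin genes left out of the scaling and -0.0377 with only the groups compared. Averaged HBD stood at 0.37 (adjusted p = 0.0013) with library sizes alone and 0.0851 without day 20. HBQ1 in DOX, day 20 against day 12, stood at -0.98 with library sizes alone. Over days 12 and 14 alone, HBA1 was at -0.60, HBA2 at -0.74, HBE1 at -0.61, HBG1 at -0.31 and HBG2 at -0.10. Library sizes alone moved the median of all genes to 0.60 in the averaged comparison, 0.95 on day 20 and -2.41 between UT day 20 and day 10, so directions hold relative to those medians.

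Counts of called globin genes became 10 on day 16 with library sizes alone, where the median of all genes stood at 0.93. On day 12 they became 1 with no filter or limma-voom, and 3 with only the groups compared. The averaged comparison, taken over days 12 and 14 alone, called 3. Counts over all genes became, on day 12, 940 with no filter, 1530 with limma-voom, 4742 with only the groups compared and 1408 with DESeq2; 11446 on day 18, 11094 on day 20 and 9541 for the change of the difference with library sizes alone; 4780, 2035 and 1079 for the same with only the groups compared; 2726 for the change with DESeq2; and 5039 over days 12 and 14 alone. Same-numbered replicates of the arms correlated at 0.03 to 0.101 by day, so the numbers were not taken as pairs; with a replicate block, day 12 gave 950 calls and HBG1 on day 16 was called (1.59, adjusted p = 0.035).

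With each library left out in turn, called globin genes numbered 7 to 9 in the averaged comparison, 0 on day 12, 2 to 3 on day 14, 4 to 6 on day 16, 7 to 8 on day 18, 6 to 8 on day 20 and 5 to 7 for the change. All genes called numbered 9939 to 10817 averaged, 56 to 217 on day 12, 2824 to 4156 on day 14, 5605 to 6657 on day 16, 5220 to 6344 on day 18, 3522 to 5392 on day 20 and 912 to 2372 for the change; the lone library was assumed to vary like the others. Sign changes there came from differences that were not called. On day 12, HBG1 ranged over -0.63 to 0.0911, HBG2 over -0.22 to 0.0270, HBD over -0.0829 to 0.0896 and HBB over -0.16 to 1.04. On day 14, HBM ranged over -0.17 to 0.62, HBG1 over -1.01 to 0.0574, HBQ1 over -0.0324 to 0.49 and HBG2 over -0.23 to 0.0601. On day 16, HBA2 ranged over -0.0952 to 0.48 and HBZ over -0.0135 to 0.98, on day 18 HBD over -0.12 to 0.45, and on day 20 HBG1 over -0.22 to 10.2. Depth limits HBB and HBM, with 128 and 563 counts in all.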
